A study of Mus musculus with 2 samples.

Results

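The Ptpn and Ptpr genes encode the classical protein tyrosine phosphatases, and H3K36me2 over their gene bodies was compared between wild-type and Nsd2-deficient regulatory T (Treg) cells. Members were the protein-coding genes of the mouse RefSeq annotation whose symbol starts with Ptpn or Ptpr and that encode a phosphatase of this family. They numbered 37 of the 21631 protein-coding genes on chromosomes 1 to 19 and X. Of these, 20 are receptor type (Ptpr) and 17 are non-receptor type (Ptpn). Ptprcap, which encodes a CD45-associated protein, was left out, and Ptprv is annotated as a transcribed pseudogene and is not a member.

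Both libraries were made from Treg cells of the spleen, from mice of the C57BL/6 background. There was 1 wild-type library and 1 library from mice labelled as an Nsd2 Treg conditional knock out. The Cre driver, the deleted exons, the age of the mice, any pooling of animals, the antibody and any input library are not stated in the labels. With 1 library per genotype no difference has a replicate check, so no p-value is given, and "lower" and "higher" state which of these 2 libraries had the larger value.

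Protein tyrosine phosphatases remove phosphate from tyrosine residues and so oppose tyrosine kinases. In T cells they set the activity of the Src-family kinase LCK, of ZAP-70 and of the JAK kinases, through CD45 (Ptprc), SHP-1 (Ptpn6), PEP (Ptpn22), PTP1B (Ptpn1) and TC-PTP (Ptpn2). Receptor types carry an extracellular part and a transmembrane segment, while non-receptor types are intracellular proteins with targeting domains such as SH2 or FERM. H3K36me2 is a histone mark spread over gene bodies and intergenic stretches, and NSD2 is one of the methyltransferases that place it.

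The data are the authors' lists of enriched regions, one per library, called separately in each. The wild-type library had 17158154 tags, 54527 regions and 42.3 Mb of covered sequence on chromosomes 1 to 19 and X, and the knockout library 14789700 tags, 39745 regions and 31.4 Mb. The calling threshold came to 7.58 tags per 10000000 in wild type and 8.11 in the knockout, so the shallower library was held to a higher bar. Tag counts of regions were scaled to equal tag totals, which hides a gain or loss of H3K36me2 common to the whole genome. Lengths inside regions and numbers of regions were not scaled, except where a division by the genome-wide ratio is named. They depend on the depth and threshold of each library and do not measure such a change either. All 5 T cell markers examined held a region in both libraries and were covered to 48.2% and 49.1% of their pooled gene bodies in wild type and knockout. Single T cell markers differed widely, with Cd3e covered to 2.17% and 7.49% and Cd5 to 41.9% and 50.7%. For the 4 Treg markers the shares were 13.998% and 15.6%, and Ctla4 held no region in either. Markers of other cells were covered to 1.34% and 0.543% (B cells), 1.41% and 1.06% (myeloid) and 4.87% and 0% (CD8 T and NK cells). In the knockout, 3 of 5 B cell markers, 2 of 5 myeloid markers and none of the 5 CD8 T and NK markers held a region. The part of other cells in the differences below was not tested. Endothelial markers were covered to 7.40% and 7.80%, through 3 and 2 of 4 genes. Regions of this mark do not show whether Nsd2 was deleted, since Nsd2 itself held none in wild type and 1 of 500 bp in the knockout.

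H3K36me2 regions were found in most of the phosphatase genes in both libraries. In wild type 30 of the 37 genes had at least 1 bp inside a region and in the knockout 32 had, against 49.4% and 45.1% of the 19190 coding genes of at least 2 kb. All 30 held a region in both libraries, where 36.1% of coding genes did. The phosphatase genes are long, with a median length of 104 kb, and in genes of 100 to under 300 kb the background was 74.9% and 68.6%. In that class 11 of the 13 phosphatase genes held a region in each library. From 30 to under 100 kb, 9 and 11 of 13 genes held a region, against a background of 62% and 54.8%, and all 5 genes of 10 to under 30 kb did so, against 46.9% and 42.1%. Of the 6 genes of 300 kb and over, 5 held a region, against 70.2% and 69.8%. Without a region in either library were Ptprd, Ptprh, Ptprq, Ptprz1 and Ptpn20. All 5 belong to the list of 12 genes set down for neural, endocrine, epithelial or endothelial cells. That list was drawn up with earlier results of these data known, and it includes Ptpn20, a testis-expressed gene.

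The length of gene body inside regions, the covered length, was somewhat lower in the knockout. Summed over the 37 genes wild type had 144136 bp and the knockout 123286 bp, or 85.5% of wild type, against 74.7% over all coding genes of at least 2 kb. By number there were 181 and 166 regions, a ratio of 91.7% with an exact binomial 95% interval of 73.8 to 113.8 that covers counting error only. For all coding genes the ratio by number was 74.7% (73.5 to 76.0), so the interval of the phosphatase genes reaches down to that of the whole. By length class this background ratio was 86.8% at 10 to under 30 kb and 76.5% at 30 to under 100 kb. At 100 to under 300 kb it was 66.3% and at 300 kb and over 61.4%, below the interval of all members. In each class the interval of its own members held the class ratio. Of the base pairs covered in wild type, 29.95% were also covered in the knockout, close to the 28.4% over all coding genes. The knockout sum rests in part on Ptpn1, and without it the ratio was 80.8%. With knockout cover divided by the genome-wide ratio of 74.3%, the phosphatase genes stood at 115% of wild type and all coding genes at 100.6%. Without regions under 1 kb the order against the background turned, with 69.3% for the phosphatase genes and 77.2% for all coding genes.

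The covered share, the percentage of a gene body inside regions, placed the 37 genes in nearly the same order in both libraries. Spearman's rho between the libraries was 0.89 over the 37 genes and 0.62 over all coding genes of at least 2 kb, a description over genes that share libraries and, here, many zeros. Shorter members had larger shares, with rho between length and share of -0.54 in wild type and -0.63 in the knockout, where all coding genes gave 0.15 and 0.12. The latter include genes of 2 to under 10 kb, a class without members, of which 60.3% held no region. Among coding genes with a region, the median wild-type share also fell with length, from 9.54% in that class to 0.565% at 300 kb and over. The largest mean shares were those of Ptpn6, Ptpn1, Ptprn, Ptpn7, Ptprs and Ptprc, all of at least 12.4%. Of the 32 genes with a region, 21 had a smaller and 11 a larger share in the knockout, or 65.6% and 34.4%, against 59.7% and 36.7% of measured coding genes. No member differed by 20 percentage points between the libraries, which 1.71% of measured coding genes did toward lower and 1.93% toward higher cover.

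**Figure D1:**
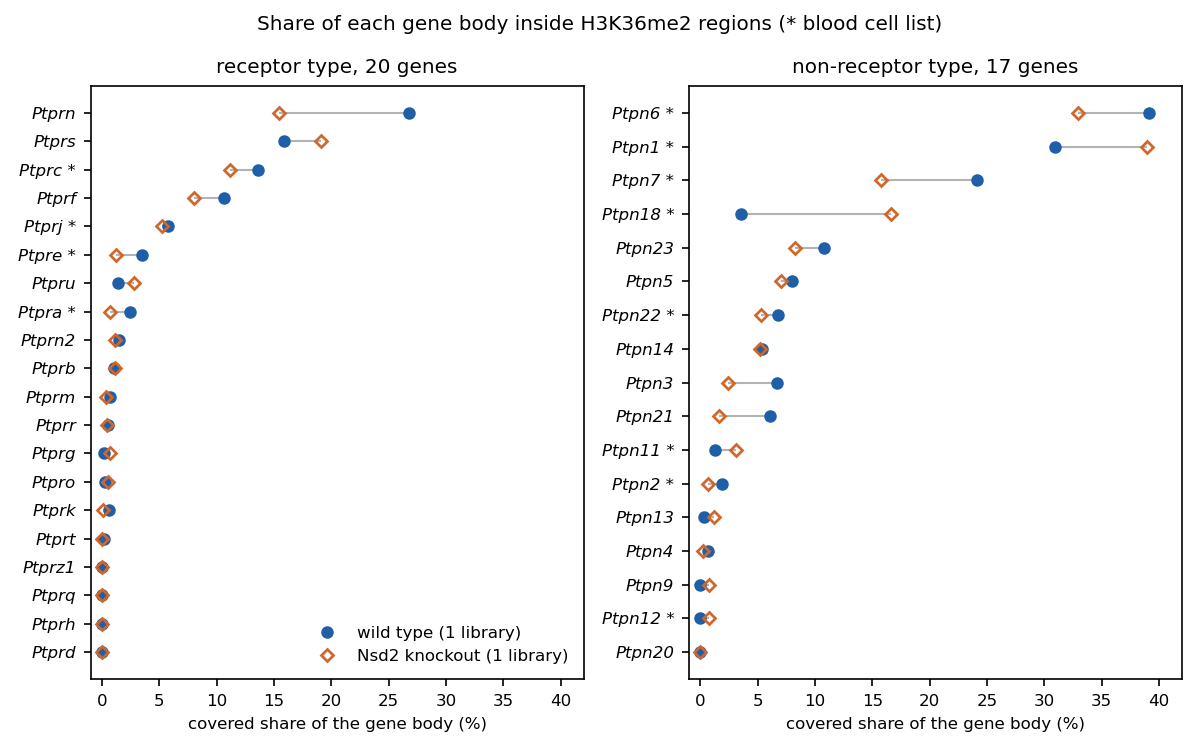
Covered share (percent of the gene body inside H3K36me2 regions, x axis) of the 20 receptor-type and 17 non-receptor-type genes, with filled circles for the wild-type library and open diamonds for the knockout library (1 library each, no error bars). Ptpn6 and Ptpn1 reach 30.9% to 39.1% in both libraries, while the 5 genes without a region sit at 0.

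Of the 27 phosphatase genes with enough cover to give a fold (a mean covered length of at least 1000 bp over both libraries), 9 were lower and 5 higher in the knockout by 1.5-fold or more. This is 33.3% and 18.5% of the 27, against a background of 42.9% lower and 14.9% higher among 4896 coding genes, so neither share is a result about the phosphatases. Within length classes the counts were small. Of the 5 genes of 10 to under 30 kb, 2 were lower and 1 higher (background 33.7% and 21.5%), and of the 8 of 30 to under 100 kb, 1 was lower and 2 higher (43.8% and 11.6%). From 100 to under 300 kb, 3 of 9 were lower and 1 higher (56.7% and 7.18%), and at 300 kb and over 3 of 5 were lower and 1 higher (57.4% and 8.33%). The lower genes were Ptpra, Ptpre, Ptprk, Ptprm, Ptprt, Ptprn, Ptpn3, Ptpn7 and Ptpn21, and the higher ones Ptpn11, Ptpn13, Ptpn18, Ptprg and Ptpru. Dividing knockout cover by the genome-wide ratio turned the split into 6 lower and 8 higher, where 27.8% and 29.7% of coding genes were lower and higher. Holding wild-type regions of 500 bp to the knockout threshold, with longer ones left as called, gave 6 lower and 5 higher, against 30.8% and 23.0%. Of the genes past the rule, the nearest to it were Ptpn7, at 1.53-fold lower, and Ptpru, at 1.97-fold higher. Of those short of it, the nearest were Ptprn2, at 1.38-fold lower, and Ptpn1, at 1.26-fold higher.

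**Figure D2:**
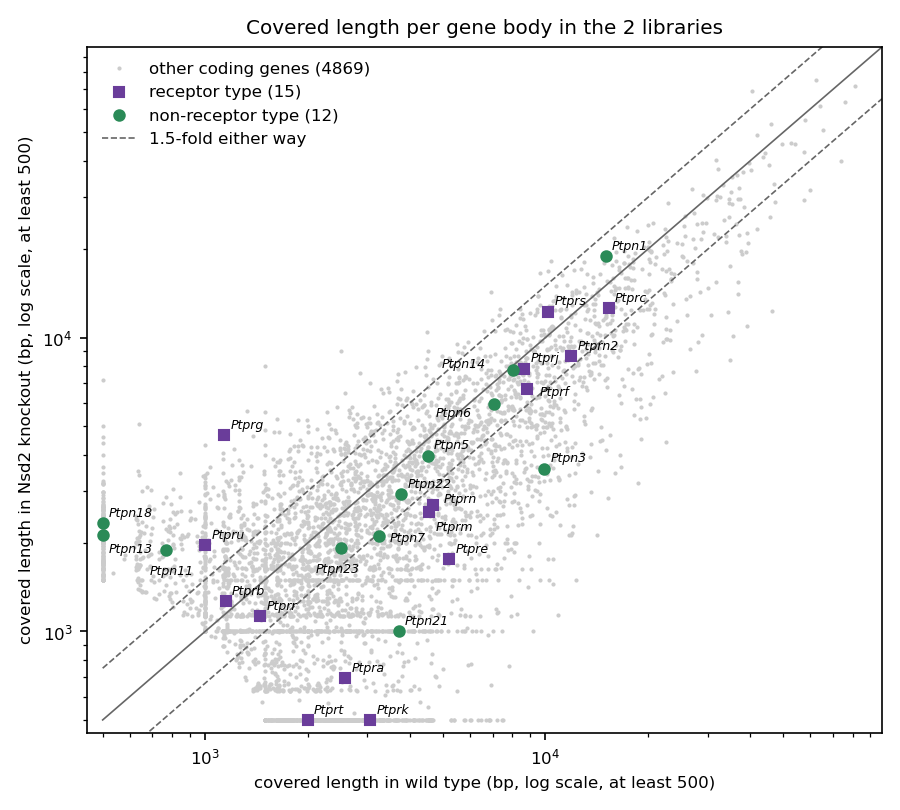
Covered length per gene body in wild type (x axis) and knockout (y axis), in bp on log scales with values under 500 bp set to 500, for 15 receptor-type genes (squares), 12 non-receptor-type genes (circles) and the other coding genes of at least 2 kb (grey points). The solid line marks equality and the dashed lines a fold of 1.5, and the phosphatase genes lie within the cloud of other genes, with 9 below and 5 above the dashed lines.

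Receptor and non-receptor types had similar ratios between the libraries. The 20 receptor-type genes held 107 wild-type regions over 82266 bp and 98 knockout regions over 66862 bp. Their knockout cover was 81.3% of wild type, and the ratio by number was 91.6% (68.9 to 121.6). The 17 non-receptor-type genes held 61870 bp in 74 regions and 56424 bp in 68 regions. Their knockout cover was 91.2% of wild type, or 80.1% without Ptpn1, and the ratio by number was 91.9% (65.1 to 129.5). The types thus could not be told apart by their ratios at this number of regions. They did differ in level, with pooled shares of 1.04% and 0.849% for receptor types and 4.93% and 4.50% for non-receptor types. Length differed too, with medians of 164 kb and 59.1 kb. Among genes of 100 to under 300 kb the pooled shares were closer, 2.35% and 1.78% in the 9 receptor-type genes and 3.0% and 2.13% in the 4 non-receptor-type genes. From 30 to under 100 kb the receptor types had the larger shares, 7.35% and 7.67% in 4 genes against 5.46% and 5.69% in 9.

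Ptprc encodes CD45, the abundant leukocyte phosphatase that keeps LCK active by removing its inhibitory phosphate. The gene (chromosome 1, 138062859 to 138175756, 112.9 kb) held 17 wild-type regions over 15341 bp and 15 knockout regions over 12580 bp, a covered share of 13.6% and 11.1%. Knockout cover was 82.0% of wild type, and 51.8% of the wild-type base pairs were covered in the knockout too. Among the 1870 coding genes of its length class, Ptprc had a larger share than 96.3% in wild type and 96.7% in the knockout. Its regions all lay toward the 5′ end. They ran from 2.74 to 48.1 kb from the gene start in wild type and from 3.10 to 49.2 kb in the knockout, and none lay in the last 2 of 5 equal parts of the gene. The longest was 3327 bp long with 43.4 normalised tags in wild type and 1898 bp with 31.4 in the knockout. The tag counts are the authors' values, per 10000000 tags of the library. Both Ptprc promoter windows, taken as the 250 bases before a RefSeq start, were free of regions in both libraries.

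The other receptor types of the blood cell list were Ptprj, Ptpre and Ptpra. Ptprj encodes CD148, a negative regulator of antigen receptor signalling, and held 8654 bp in 8 wild-type regions and 7841 bp in 13 knockout regions. Its covered share of 5.73% and 5.19% was nearly equal, yet only 25.2% of the wild-type base pairs were shared. Ptpre and Ptpra form a subclass with short extracellular parts, and RPTP-alpha, from Ptpra, activates Src-family kinases. Ptpre held 5209 bp in 7 wild-type regions and 1763 bp in 3 knockout regions, at shares of 3.51% and 1.19%. Ptpra held 2581 bp in 3 wild-type regions and 694 bp in 1 knockout region, at shares of 2.48% and 0.667%. Knockout cover was 33.8% of wild type in Ptpre, 26.9% in Ptpra and 31.5% in the pair together. At Ptpra the libraries shared no covered base. All 7 wild-type regions of Ptpre lay at least 70.7 kb from its 5′ end, unlike those of Ptprc. The single knockout region of Ptpra lay 99.0 kb from its own 5′ end. A wild-type region of Ptpra lay at 32.5 to 33.1 kb, within the outer range of the Ptprc regions but in a gap between them. The direction held under all 8 alternatives that could be run for single genes, with 7 of them keeping Ptpra and 6 keeping Ptpre past 1.5-fold. In genes of this length class 56.7% were lower by that rule.

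**Figure D3:**
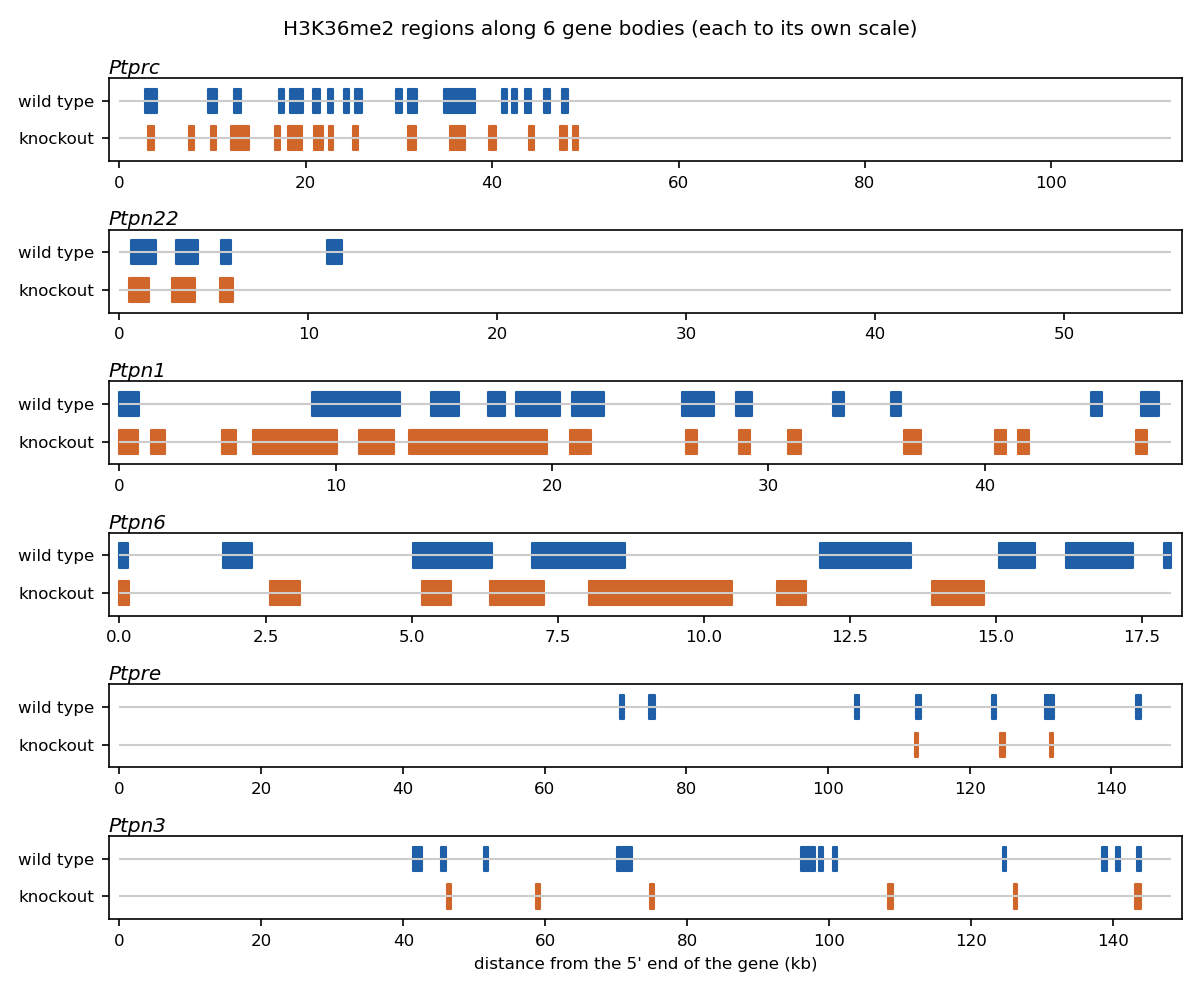
Regions along 6 gene bodies, drawn to scale from the annotated 5′ end (x axis, kb; each gene has its own scale), with wild-type regions in the upper and knockout regions in the lower track of each panel. Ptprc and Ptpn22 carry their regions toward the 5′ end in both libraries, Ptpre away from it, and Ptpn6 and Ptpn1 along much of their length.

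Ptprs, Ptprf and Ptprd make up the LAR subclass of receptors with immunoglobulin and fibronectin domains, which bind proteoglycans and synaptic partners. Ptprs (chromosome 17, 56412426 to 56476561) had the largest share of any receptor-type gene in the knockout. It held 10175 bp in 12 wild-type regions and 12264 bp in 15 knockout regions, 15.9% and 19.1% of the gene. That is above 95.5% and 98.0% of the coding genes of its length class, although the gene is best known from neurons and plasmacytoid dendritic cells. Only 34.2% of the wild-type base pairs were shared. Ptprf held 8858 bp and 6662 bp, and Ptprd, the longest member with 2271 kb, held none in either library.

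The adhesion receptors Ptprk, Ptprm, Ptprt and Ptpru, whose extracellular parts bind the same molecule on a neighbouring cell, carried little cover. Ptprk held 5 wild-type regions over 3051 bp and 1 knockout region of 500 bp. For Ptprt the numbers were 4 regions over 2000 bp and 1 of 500 bp, and for Ptprm 7 over 4561 bp and 4 over 2550 bp. Ptpru went the other way, with 2 regions over 1000 bp and 3 over 1971 bp. Pooled, the subclass had 10612 bp and 5521 bp, or 52.0% of wild type, where all coding genes of 300 kb and over, the length of 3 of these 4, stood at 60.05%. Only Ptprm had a base covered in both libraries. In 2 of these genes the direction turned under an alternative: Ptprk among the higher-scoring regions and Ptprm among regions of at least 10 normalised tags.

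Ptprg, encoding a receptor with a carbonic anhydrase-like domain and a proposed tumour suppressor, was the receptor gene furthest toward higher cover. It held 2 wild-type regions over 1138 bp and 8 knockout regions over 4650 bp, which is 4.09-fold more. In a gene of 689 kb these are shares of 0.165% and 0.675%, and 1 of the 8 knockout regions had a base in a wild-type region. All 8 were under 1 kb, so no cover remained in either library without such regions. Its relative Ptprz1, a receptor of glia, held no region.

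Ptprn and Ptprn2 encode the secretory granule proteins IA-2 and IA-2beta, which are autoantigens in type 1 diabetes and lack the usual catalytic activity. Ptprn (chromosome 1, 75247035 to 75264497) held 4673 bp in 4 wild-type regions and 2694 bp in 4 knockout regions, or 26.8% and 15.4% of the gene. It is the largest share of any receptor-type gene in wild type, in a gene listed for endocrine and neural cells and 17.5 kb long. The difference of -11.3 points turned to 6.71 points among the higher-scoring 50% of regions. Ptprn2 held 11922 bp in 20 regions and 8662 bp in 16, but in 792 kb this was 1.504% and 1.09%, and 7.82% of the wild-type base pairs were shared.

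The other receptor types held at most 1453 bp in either library. Ptprr, whose product binds MAP kinases, held 1453 bp and 1126 bp, of which 219 bp in wild type also lie in the overlapping gene Taf7l2. Ptprb encodes the endothelial phosphatase VE-PTP and held 1150 bp and 1267 bp. Ptpro, known as GLEPP1 of the kidney glomerulus, held 500 bp and 1138 bp. Each library had at most 2 regions in any of these genes.

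Ptpn6 encodes SHP-1, the SH2-domain phosphatase that ends antigen receptor and cytokine signals in blood cells, and it had the largest mean covered share of the family. The gene (chromosome 6, 124720707 to 124738709, 18.0 kb) held 7039 bp in 8 wild-type regions and 5929 bp in 7 knockout regions. Its shares of 39.1% and 32.9% lay above 98.8% and 98.1% of coding genes of at least 2 kb. Knockout cover was 84.2% of wild type, but only 21.4% of the wild-type base pairs were covered again, so the regions of the 2 lists sat largely side by side in the gene. Ptpn11 encodes SHP-2, the other SH2-domain phosphatase, which acts mostly in growth factor and RAS signalling. It held 767 bp in 1 wild-type region and 1890 bp in 2 knockout regions, 2.46-fold more, with no shared base.

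The promoter windows of these relatives differed. The 250 bases before the RefSeq start lay wholly inside regions in both libraries for Ptpn6 and in neither for Ptpn11. The sequences of windows of Ptpn6, Ptpn7 and Ptpn22, which had cover in both libraries, are shown beside that of Ptpn11, which had none. They are from RefSeq on GRCm38.p6, printed 5′ to 3′ on the strand of the gene, with CpG dinucleotides in capitals. Ptpn6 has its window at chr6:124738710-124738959 (minus strand), Ptpn7 at chr1:135132450-135132699 (plus), Ptpn22 at chr3:103859545-103859794 (plus) and Ptpn11 at chr5:121191398-121191647 (minus).
Ptpn6: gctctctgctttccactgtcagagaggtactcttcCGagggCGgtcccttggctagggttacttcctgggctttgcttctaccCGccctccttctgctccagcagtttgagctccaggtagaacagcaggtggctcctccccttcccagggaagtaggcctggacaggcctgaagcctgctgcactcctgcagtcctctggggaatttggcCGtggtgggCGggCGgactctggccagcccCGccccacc
Ptpn7: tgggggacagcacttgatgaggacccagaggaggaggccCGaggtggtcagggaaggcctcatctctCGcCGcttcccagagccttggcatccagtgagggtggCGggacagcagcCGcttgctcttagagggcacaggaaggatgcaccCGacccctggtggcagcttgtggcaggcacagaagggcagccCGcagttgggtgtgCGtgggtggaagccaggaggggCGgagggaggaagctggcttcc
Ptpn22: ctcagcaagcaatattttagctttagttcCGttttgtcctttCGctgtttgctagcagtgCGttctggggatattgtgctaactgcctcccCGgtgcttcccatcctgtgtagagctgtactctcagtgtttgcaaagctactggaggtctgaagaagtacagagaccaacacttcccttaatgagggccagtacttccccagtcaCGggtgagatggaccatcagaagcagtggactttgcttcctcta
Ptpn11: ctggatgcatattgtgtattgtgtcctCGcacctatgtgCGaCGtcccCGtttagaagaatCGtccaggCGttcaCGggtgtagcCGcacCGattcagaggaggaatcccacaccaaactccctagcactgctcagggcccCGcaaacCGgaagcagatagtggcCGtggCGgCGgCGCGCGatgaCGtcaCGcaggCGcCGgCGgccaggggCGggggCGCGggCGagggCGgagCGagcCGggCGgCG
The windows hold 7 CpG in Ptpn6, 9 in Ptpn7, 5 in Ptpn22 and 31 in Ptpn11. The Ptpn11 window does not stand for all uncovered ones, as both Ptprc windows, with 2 and 4 CpG, also held no region. Of the 20 member windows with 0 to 10 CpG, 5 had a covered base in wild type and 5 in the knockout.

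Over the 46 promoter windows of the 32 members in the RefSeq promoter table, 4 lay wholly inside regions in both libraries, or 8.70%, against 2.95% of the 21045 windows of all coding genes. They were that of Ptpn6, both windows of Ptpn7 and the second window of Ptpn22, all of the blood cell list. The first window of Ptpn22 had 212 bases inside regions in wild type and all 250 in the knockout. Windows covered in the knockout only were 1 of Ptprs, with all 250 bases, and parts of those of Ptpn1, with 127 bases, and Ptpn23, with 84. All 4 windows covered in both libraries held at most 10 CpG. That is 4 of 20 such windows of members (20%), from 3 genes, against 2.05% of all windows with so few CpG. Of the 15 member windows with 21 CpG or more none was covered in both, where the background was 3.80%. At these numbers 1 gene moves a share by several points.

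The windows were also searched, on both strands, for 4 short motifs of factors active in T cells. An ETS motif (CCGGAAG) was found in 6.52% of member windows and 9.08% of all windows, and a RUNX motif (TGTGGT) in 13.0% and 12.2%. The STAT motif TTCNNNGAA was found in 10.9% and 6.64%, and a forkhead motif (TGTTTAC) in 6.52% and 2.64%. These are 3 to 6 windows of members per motif. None of the printed windows holds any of them but that of Ptpn11, which matches the ETS motif. A match is a description of the letters and not a bound site.

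**Figure D4:**
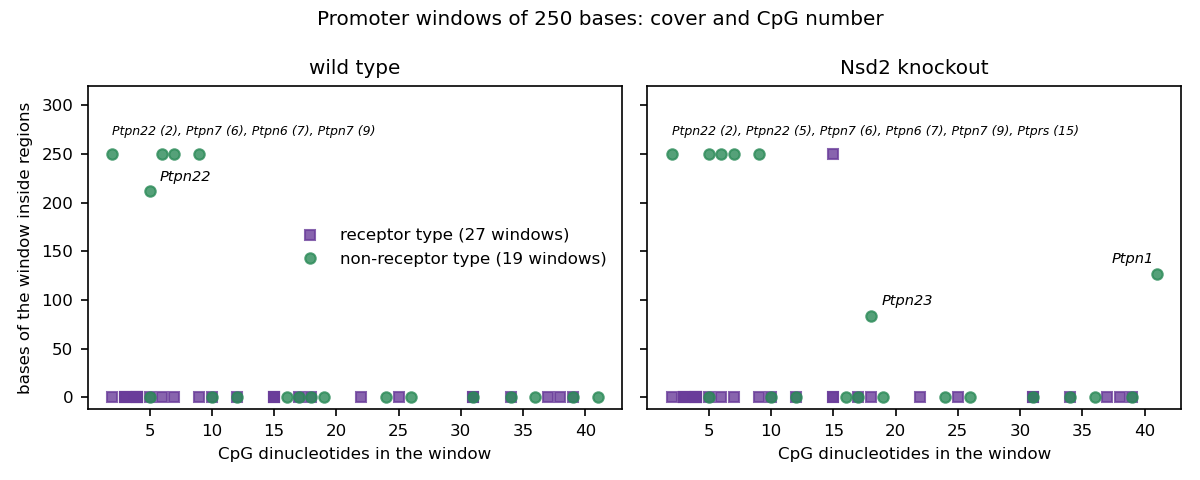
Bases of each 250-base promoter window inside regions (y axis) against the number of CpG dinucleotides in the window (x axis), for 27 windows of receptor-type genes (squares) and 19 of non-receptor-type genes (circles), in the wild-type library (left) and the knockout library (right); numbers in brackets are CpG counts. Windows covered in both libraries have few CpG, and most windows lie at 0, among those with few CpG too.

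Ptpn7 encodes HePTP, a phosphatase of ERK and p38 found in blood cells. The gene (chromosome 1, 135131838 to 135145328) held 3251 bp in 3 wild-type regions and 2120 bp in 2 knockout regions, 24.1% and 15.7%, which puts it just past 1.5-fold lower. The regions at its 5′ end reach beyond the gene, into the neighbouring pseudogene Ptprv. The wild-type one was 2697 bp long with 42 normalised tags, and the knockout one 7245 bp long with 144.7, of which 1620 bp lay in Ptpn7. The longest region of any member in the knockout thus sits at a gene that the covered length puts lower. The call was kept under 3 of 8 alternatives. Ptpn5, the neuronal relative STEP, held 4506 bp and 3965 bp in 6 regions each.

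Ptpn1 encodes PTP1B, which dephosphorylates JAK2, TYK2 and the insulin receptor, and held the most covered base pairs of any member in the knockout. The gene (chromosome 2, 167930750 to 167979385, 48.6 kb) had 12 wild-type regions over 15050 bp and 14 knockout regions over 18939 bp, 30.9% and 38.9%. These shares lay above 99.1% and 99.6% of the coding genes of its length class. Knockout cover was 126% of wild type, short of 1.5-fold, and 61.5% of the wild-type base pairs were shared. Its longest region was 4043 bp with 84.5 normalised tags in wild type and 6363 bp with 111.9 in the knockout. The first of 5 equal parts of the gene held 11.3% of the cover in wild type and 30.2% in the knockout. A region reached the 5′ end of the gene in both libraries. Across the 8 alternatives the difference of 7.996 points ran from -10.8 to 21.5 points. Its paralogue Ptpn2 encodes TC-PTP, an inhibitor of JAK and STAT signalling in T cells and a locus of autoimmune risk. Ptpn2 held only 1137 bp in 2 wild-type regions and 419 bp in 1 knockout region, 1.92% and 0.709%, under the cover needed for a fold. The close paralogues thus differed widely in level in both libraries.

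The PEST-domain phosphatases bind the kinase CSK or the adaptor PSTPIP1. Ptpn22, which encodes PEP (LYP in humans), the inhibitor of LCK and ZAP-70 whose coding variant is linked to autoimmunity, lies on chromosome 3 from 103856575 to 103912252. It held 3772 bp in 4 wild-type regions and 2940 bp in 3 knockout regions, 6.77% and 5.28%. All of them lay within 11.8 kb of the 5′ end in wild type and 5.99 kb in the knockout, in a gene of 55.7 kb, and each knockout region had a base in a wild-type one. Of the wild-type base pairs 65.5% were shared, the largest percentage among the members with more than 1 region in each library. Ptpn18, which dephosphorylates HER2, held a single region in each library near its 3′ end. It was 500 bp long with 7.58 normalised tags in wild type and 2339 bp long with 35.2 in the knockout, and covered 3.56% and 16.6% of the gene. This was the largest fold toward higher cover among the phosphatases, 4.68-fold, and the knockout region contained the wild-type one. Among the higher-scoring 50% of regions neither library had a region there. Ptpn12, encoding PTP-PEST, had no wild-type region and 1 of 500 bp in the knockout.

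The FERM-domain phosphatases, which sit at the membrane and cytoskeleton, had the lowest ratio among the non-receptor subclasses, 23348 bp and 14967 bp, or 64.1%. All coding genes of 100 to under 300 kb, the length of 4 of these 5, stood at 66.0%, so the ratio is near that of the length class. Ptpn3, encoding PTPH1, held 9926 bp in 11 wild-type regions and 3584 bp in 6 knockout regions, at shares of 6.70% and 2.42%. It was past 1.5-fold lower under all 8 alternatives, the only 1 of the 14 genes past the fold for which this held. Ptpn21 held 3702 bp in 5 wild-type regions and 1000 bp in 2 knockout regions, 3.70-fold less, and both knockout regions overlapped wild-type ones. Ptpn13, encoding the large scaffold phosphatase PTP-BL, held 500 bp in 1 region and 2138 bp in 4, or 4.28-fold more, with no shared base. Ptpn14, a regulator of YAP, differed little, with 8018 bp in 12 regions and 7745 bp in 13. Ptpn4 held 1202 bp and 500 bp. Of the 5 genes, 4 had the smaller share in the knockout, where 59.7% of measured coding genes did, and 73.4% of those of 100 to under 300 kb.

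The remaining non-receptor genes held little. Ptpn23, encoding the endosomal protein HD-PTP, held 2500 bp in 5 wild-type regions and 1916 bp in 4 knockout regions, with no base in common. Ptpn9, a phosphatase with a lipid-binding SEC14 domain, held 0 bp and 500 bp. Ptpn20, a testis-expressed gene, held none.

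Pooled cover was higher in the genes listed for blood cells than in those listed for other tissues. Both lists were drawn up with earlier results of these data known. Neither holds Ptprs (15.9% and 19.1%), Ptprf (10.6% and 8.01%) or Ptpro (0.235% and 0.536%), so the contrast holds for the listed genes only. The 12 genes of the blood cell list were covered to 7.40% and 6.77% of their pooled bodies. The 12 of the neural, endocrine, epithelial and endothelial list were covered to 0.513% and 0.388%. The latter sums include very long genes with little or no cover, such as Ptprd and Ptprt. Median shares over the genes with a region were 4.65% and 5.24% in the blood cell list and 1.43% and 1.11% in the other. Median lengths were 59998.5 bp and 145820 bp, so the lists also differed in length. Against wild type, knockout cover was 91.6% in the blood cell list and 75.6% in the other. Within the blood cell list the 4 receptor types stood at 72.0%, with all 4 genes smaller in the knockout. All coding genes of their class, 100 to under 300 kb, stood at 66.0%, with 73.4% of measured genes smaller. The 8 non-receptor types stood at 111%, with 4 smaller and 4 larger. Their classes, 10 to under 30 kb and 30 to under 100 kb, stood at 88.2% and 76.1%, with 55.8% and 63.4% smaller. Over all lengths 59.7% of measured coding genes were smaller. The 2 types of this list thus also differed in length. The sign of Ptprj turned under 2 of 8 alternatives (to at most 1.26 points) and that of Ptprc under 1 (1.41 points). Without Ptpn1 the non-receptor types of the list stood at 98.0%. Of the base pairs covered in wild type, 42.3% were covered in the knockout in the blood cell list and 19.6% in the other list.

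Along the gene body, the blood cell list carried its cover toward the 5′ end. Strand was known for 10 of its genes, and 28.0% of their wild-type and 36.7% of their knockout base pairs inside regions fell in the first of 5 equal parts, against 22.1% and 24.2% in 15243 coding genes. The next part held 30.3% and 27.8%, against 20.1% and 19.6%. These sums rest on few genes. Without Ptprc and Ptpn1 the first part of the other 8 held 30.9% and 33.7% and the next part 13.3% and 12.2%, and the last part 23.4% and 20.9%. Over the 32 members with a strand, the first part held 21.6% and 25.5%.

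**Figure D5:**
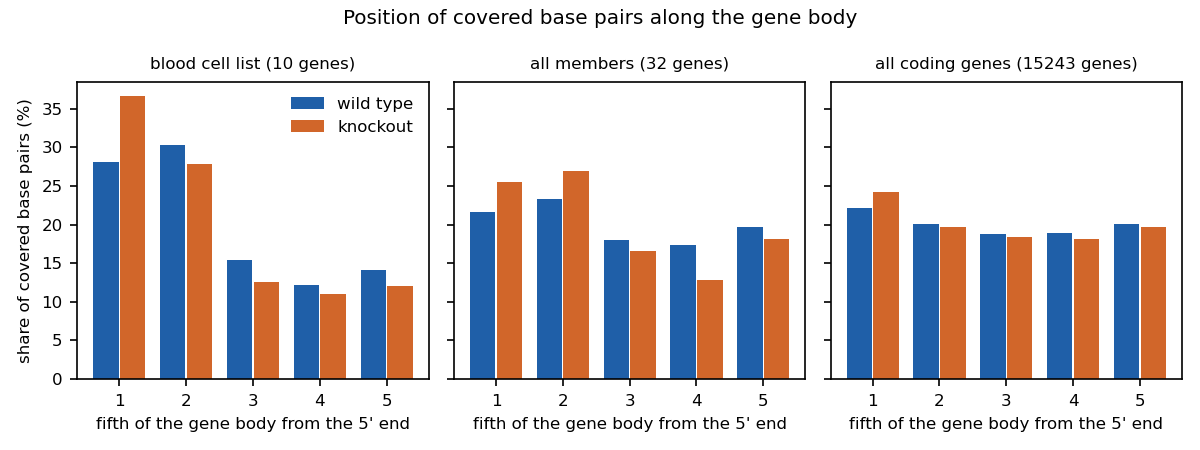
Share of covered base pairs (percent, y axis) in each of 5 equal parts of the gene body from the 5′ end (x axis), for 10 genes of the blood cell list, 32 members and 15243 coding genes of at least 2 kb with a known strand, in wild type (blue) and knockout (orange), 1 library each. In the blood cell list the first part holds 28.0% in wild type and 36.7% in the knockout and the last 14.1% and 12.0%, while all coding genes are nearly level.

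Longer member regions met a region of the other library more often than short ones. Of the 36 wild-type member regions of at least 1 kb, 63.9% had a base in a knockout region, and of the 73 of 500 bp or less 16.4% did. In the other direction 20 of the 22 knockout regions of at least 1 kb, or 90.9%, met a wild-type region, against 24.4% of the 82 of 500 bp or less. The background over coding genes was 68.6% and 16.7% in wild type and 80.5% and 26.4% in the knockout, and the members' interval for the long knockout regions (70.8 to 98.9) holds the background. Over all lengths 36.5% of wild-type member regions (29.5 to 43.9) met a knockout region, against 30.6% for all coding genes, which lies within the interval.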

How the data were processed

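Each library's deposited file is a list of regions that the authors called per library with findPeaks of HOMER (histone style), per the file headers, from peaks of 500 bp stitched into regions, with no control library named. Per the submitters' processing notes the tools were Trim Galore, Bowtie2, Picard, HOMER and deepTools, with the build mm10. The signal value used, the normalised tag count, is per 10000000 tags, a scaling the authors made in HOMER, per the file headers. The score deposited by the authors was used only to take the higher-scoring 50% of each list. Clonal fold changes and other ratios were not used.

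Gene bodies came from RefSeq on GRCm38.p6, the assembly named mm10, without exons. Strand was taken from the promoter table. For the 5 members without an entry (Ptprq, Ptprb, Ptpn2, Ptprd and Ptpn12) no position along the gene is given. Covered base pairs, each counted once, covered share and regions with at least 1 bp in the gene were computed in Python 3.11.15 with numpy 2.4.6, pandas 2.3.3 and scipy 1.17.1. A gene counted as lower or higher when covered length differed by at least 1.5-fold, with values under 500 bp set to 500, in genes of at least 2000 bp with a mean of at least 1000 bp. This rule concerns size alone and tests nothing. Ratios of region counts carry exact binomial 95% intervals, which cover counting error only, as tags are PCR reads without molecular identifiers. Overlap counting was tested on simulated data.

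The members, gene lists and rules were chosen with earlier results of these data known. Given in full were the blood cell list, the 6 genes with the largest mean share and the 4 furthest lower and the 4 furthest higher. Of the lists of other phosphatases and of partners, the 2 members with the largest mean share and the 2 with the largest difference were named. Alternatives changed the region length, score, tag minimum, threshold, window, stitching, assignment, scaling and size rule.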

Additional observations from a re-analysis of the deposited data

How the results depend on the processing

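Each genotype had 1 library, so nothing here separates Nsd2 from library, animal or calling threshold, and short regions lie near the depth limit. No paired analysis was possible because there was 1 library per genotype. Covered length in the knockout relative to wild type ranged from 57.4% to 122.7% over the 3 sums (all members, receptor type, non-receptor type) and their alternatives. Dividing knockout cover by the genome-wide ratio gave 115% for all members and 8 genes higher (all coding genes 100.6% and 29.7%). Without regions under 1 kb, receptor types stood at 57.4% (all coding genes 77.2%), 17 wild-type and 13 knockout members held a region (14.3% and 11.6% of coding genes), and 2 were higher (18.9%). With at least 10 normalised tags, 3 were higher (19.7%). By a difference of 20 percentage points, 0 were lower and 0 higher (1.71% and 1.93%). The directions of Ptprn (6.71 points) and Ptprk (0.0957 points) turned among the higher-scoring 50% of regions, and that of Ptprm (0.0205 points) among regions of at least 10 normalised tags. The cause was not tested. Of the 14 genes past the fold, 6 had the same sign under all 8 alternatives for single genes, and 1, Ptpn3, was past the fold in all 8.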

Other observations

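Other phosphatases that act on phosphotyrosine, 20 genes outside the Ptpn and Ptpr families, were covered to 4.88% of their pooled bodies in wild type and 4.20% in the knockout, or 86.2% of wild type by length. Ptp4a3, which encodes the small membrane-bound phosphatase PRL-3, held 20536 bp in 9 wild-type regions and 13168 bp in 10 knockout regions, 57.6% and 37.0% of the gene. Cdc25b, an activator of cyclin-dependent kinases, held 3215 bp and 941 bp, or 26.6% and 7.79%. Of the 9 genes with enough cover for a fold, 2 were lower (Ptp4a3 and Cdc25b) and 3 higher (Ptp4a2, Cdc14b and Mtmr3), against 42.9% and 14.9% of coding genes. Ptp4a2, the relative PRL-2, held 2509 bp and 9008 bp and so went opposite to Ptp4a3. Both Ubash3 genes, which encode the Sts phosphatases that restrain T cell receptor signalling, held 5 or more regions in each library.

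The kinases, adaptors and receptors that these phosphatases act on or bind in T cells were covered to a greater extent, 11.003% and 12.1% over 20 genes, with 110% of the wild-type length in the knockout. They were also shorter, with a median length of 28.1 kb against 104 kb for the Ptpn and Ptpr genes. All coding genes of 10 to under 30 kb stood at 88.2% of wild type, with 40.5% of measured genes larger in the knockout. The partner sums of 136374 bp and 149758 bp rest in part on Fyn, a gene of 195639 bp with 31628 bp and 40091 bp. All coding genes of 100 to under 300 kb stood at 66.0% of wild type. Cd5, an inhibitory receptor that recruits SHP-1, was covered to 41.9% and 50.7%, and Csk, the kinase that inhibits LCK and binds PEP, to 40.8% and 45.9%. Sit1, an adaptor that binds SHP-2, was covered to 49.2% and 35.4%, and Pdcd1, which encodes PD-1, to 46.0% and 34.3%. Of 16 partners of at least 2 kb with a region, which leaves out the shorter Sit1, 11 had a larger and 5 a smaller share in the knockout, where 59.7% of measured coding genes had a smaller one. Of 14 with enough cover, 1 was lower (Pag1, 13627 bp and 7533 bp) and 1 higher (Grb2, 4861 bp and 8071 bp), against the same background. LCK, the kinase that CD45 and PEP act on in opposite directions, is encoded by Lck, which held 7089 bp and 8770 bp, or 28.0% and 34.7%. Ptprcap held no region in either library. The pseudogene Ptprv, whose last bases overlap the start of Ptpn7, was covered to 44.7% and 43.4%, with 10774 bp in 8 wild-type regions and 10445 bp in 6 knockout regions.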
